A study of Sus scrofa with 18 samples.

Results

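Retinoic acid is made from vitamin A in the cells of the embryo and fetus, and the genes described here make it, break it down, bind it or respond to it. They are ALDH1A1, ALDH1A2 and ALDH1A3 (synthesis), CYP26A1 and CYP26B1 (breakdown), RARA, RARB and RARG (nuclear receptors) and CRABP1 (a binding protein of the cytoplasm). The 9 genes were chosen by name among the 31908 genes of the gene-wise count table. Of these, 8 carry their name in the table, and RARB, which has no name there, was found by its gene identifier, so no member was missing. The samples were whole brains of domestic pig fetuses (Sus scrofa, Landrace × Large White gilts bred by artificial insemination to LR-M6 from Choice Genetics), untreated, at gestation day (GD) 45, 60 and 90, with 3 female and 3 male fetuses at each day and 18 libraries in all. Each replicate was a separate fetus, and within a day each female had the same labelled litter size as 1 male. Shared litters were inferred from that alone, since the labels name no litter or dam. A whole brain pools all regions, and a gene used in few cells is diluted by the rest.

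Retinal dehydrogenases of the ALDH1A family oxidize retinal to retinoic acid, which enters the nucleus and binds the receptors RARA, RARB and RARG, partnered by RXR proteins, on DNA. Cytochrome P450 enzymes of the CYP26 family oxidize and remove it, and CRABP1 holds it in the cytoplasm. CYP26A1 and RARB are textbook targets of the pathway they belong to, and in the embryo graded retinoic acid patterns the hindbrain and spinal cord through the HOX genes. In the later brain, ALDH1A1 is known from dopamine neurons of the midbrain, ALDH1A2 from the meninges, ALDH1A3 from parts of the forebrain and the eye, and CYP26B1 from subsets of neurons in several regions.

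The receptors bind a DNA element called DR5, a pair of 6-letter half-sites in the same orientation with 5 letters between them. The half-sites searched were AGGTCA and AGTTCA, and also GGTTCA and GGGTCA, on both strands of the Sscrofa11.1 genome (RefSeq copy) within 500 bases of the start of each gene. Only CYP26A1 and RARB of the 9 genes had a match, and of 30440 genes on assembled chromosomes 0.595% had one. Within 1000 bases of the start the same members had a match, against 1.11% of all genes. The window was chosen after the positions had been seen, and the half-sites searched include those that make up both matches. The share over all genes is thus a description and not a test. Only the outermost annotated start of each gene was searched, so elements at starts inside a gene, for any of the 9, would be missed. Both matches are shown 5′ to 3′ on their own strand with the half-sites in capitals, because these members are known targets of the receptors and had the largest rises with gestation day.
CYP26A1: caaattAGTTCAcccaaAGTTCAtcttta
RARB: gggaagGGTTCAcggaaAGTTCActcgca
The CYP26A1 sequence spans chr14:104563524-104563552 (minus strand, while the gene is on the plus strand). The repeat lies from 335 bases inside the gene, in the first exon of the count table's annotation, and its far end is 113 bases before the first coding base of the RefSeq annotation, where a predicted RefSeq transcript also has an exon. The RARB sequence spans chr13:12336544-12336572 (plus strand, as the gene), and its match lies 422 bases before the start of the gene as annotated in the count table, in no annotated exon. The matches share 14 of 17 letters, and RARB differs from CYP26A1 at A1G, C8G and C9G, counted from the first letter of the first half-site. A match of letters says nothing about whether a receptor sat there in these brains.

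Library totals ranged from 15118843 to 19729783 counts (median 16413097), and levels are given as CPM, read counts scaled to a common library total. A gene with no reads in a library is limited to 3 reads, which is 0.152 to 0.198 CPM and covers counting error alone, the reads having no molecular identifiers. Neuron markers summed to 6573 to 7856 CPM at GD45 and 8549 to 9757 CPM at GD90, and markers of oligodendrocytes to 119 to 307 CPM at GD45 and GD60 and 2071 to 3428 CPM at GD90. Male GD45 replicate 17 stood apart from all other libraries, with the lowest normalization factor (0.849) and the lowest score on the first principal component (-87.7). Its brain weighed 0.7135 and that of female replicate 18, which had the same litter size, weighed 0.6653, against 1.55 to 1.86 for the other GD45 brains (unit labelled mg). Male GD45 replicate 17 and male GD60 replicate 16, which is described with ALDH1A1, are named wherever they decide a value. From GD45 to GD90 all 7 oligodendrocyte markers and 6 of 8 neuron markers were higher in each sex, and 1 neuron marker was lower in males. Of 9 choroid plexus markers 5 were lower in females and 6 in males, and of 6 erythroid markers 3 and 4. Over that span 38.8% of all genes tested were called changed in females and 47.8% in males. The part of these markers in the changes between days was not tested.

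Per length of annotated exons, CRABP1 was by far the most abundant of the 9 genes at each day, and the synthesis enzymes were among the least. Levels per length are given as FPKM, CPM divided by the length in kilobases of all annotated exons of a gene, merged. That length can exceed the length of a single transcript. It was 7503 bases for ALDH1A1 and 6388 for ALDH1A3, with annotated exons of 3684 and 4636 bases among them. Shorter transcripts of these genes would have a higher FPKM. CRABP1 had a mean of 129.7 ± 35.7 FPKM at GD45 (SD, n = 6, both sexes), 99.8 ± 10.8 at GD60 and 48.8 ± 13.9 at GD90. At GD45, CYP26B1 (13.2 ± 7.37) and RARA (10.6 ± 0.748) came next and their ranges overlapped, followed by RARB (2.92 ± 0.929), RARG (1.86 ± 0.275), ALDH1A2 (1.53 ± 0.426), CYP26A1 (1.41 ± 0.507), ALDH1A1 (0.701 ± 0.168) and ALDH1A3 (0.520 ± 0.193). Each of these neighbours from RARB down overlapped the next. CYP26A1 moved from the 7th to the 5th and then the 2nd place, reaching 13.9 ± 2.05 FPKM at GD90 beside CYP26B1 at 13.0 ± 3.70, with overlapping ranges. By gene counts, RARA (9.21 ± 0.571) and RARB (8.85 ± 1.10) also overlapped at GD90. At GD45 the lowest RARA library (9.26) was above the highest RARB library (3.85). Exon counts gave another order of these receptors at GD90, described below. ALDH1A2, ALDH1A1 and ALDH1A3 held the last 3 places at GD60 and at GD90.

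**Figure D1:**
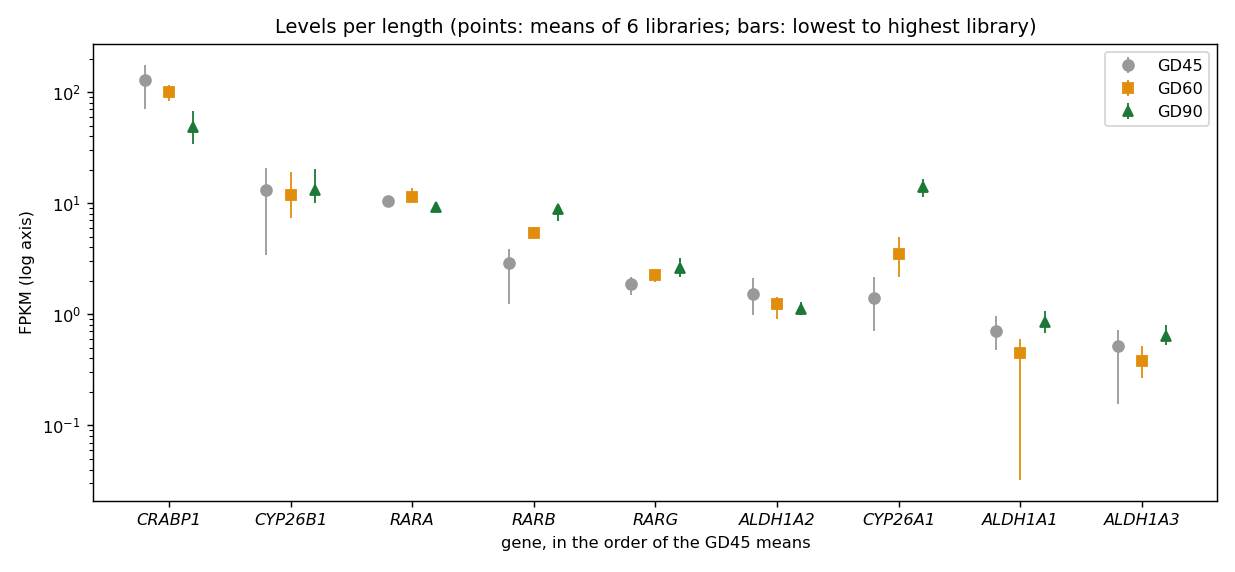
Mean FPKM of the 9 genes at GD45, GD60 and GD90 on a log axis, with bars from the lowest to the highest of 6 libraries. CRABP1 stands above all others at each day, and CYP26A1 climbs from a mean of 1.41 to 13.9 FPKM.

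Day by day within each sex, CYP26A1 and RARB were the members called most often. All 9 members passed the filter on low counts. With an adjusted p under 0.05 as the threshold, 1 member rose from GD45 to GD60 in females (RARB), where 7.22% of 16325 genes were called, and 2 rose in males (CYP26A1 and RARB), where 5.61% were called. Between GD60 and GD90, 1 member rose in females (CYP26A1, 27.1% of genes called), and in males 3 rose (CYP26A1, RARB and ALDH1A3) and 2 fell (RARA and CRABP1, 34.5% called). Over the whole span from GD45 to GD90, CYP26A1, RARB and RARG rose and CRABP1 fell in each sex, with 38.8% of genes called in females and 47.8% in males. These shares of members (1 to 5 of 9) are read against backgrounds of 5.61% to 47.8%. The median log2 fold change over the members lay between -0.27 and 0.77, where that over all genes lay between -0.04 and 0.01. Both ends of the member range are the value of CYP26B1, which was not called. A median of 9 genes also varies far more than one of 16325, so no shift of the members as a set is read from it. Successive comparisons share the GD60 libraries, and all of them share 1 estimate of the spread. Between days within a sex, the groups of 3 libraries did not overlap for 2 to 7 members, beside 18.4% to 58.7% of all genes.

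**Figure D2:**
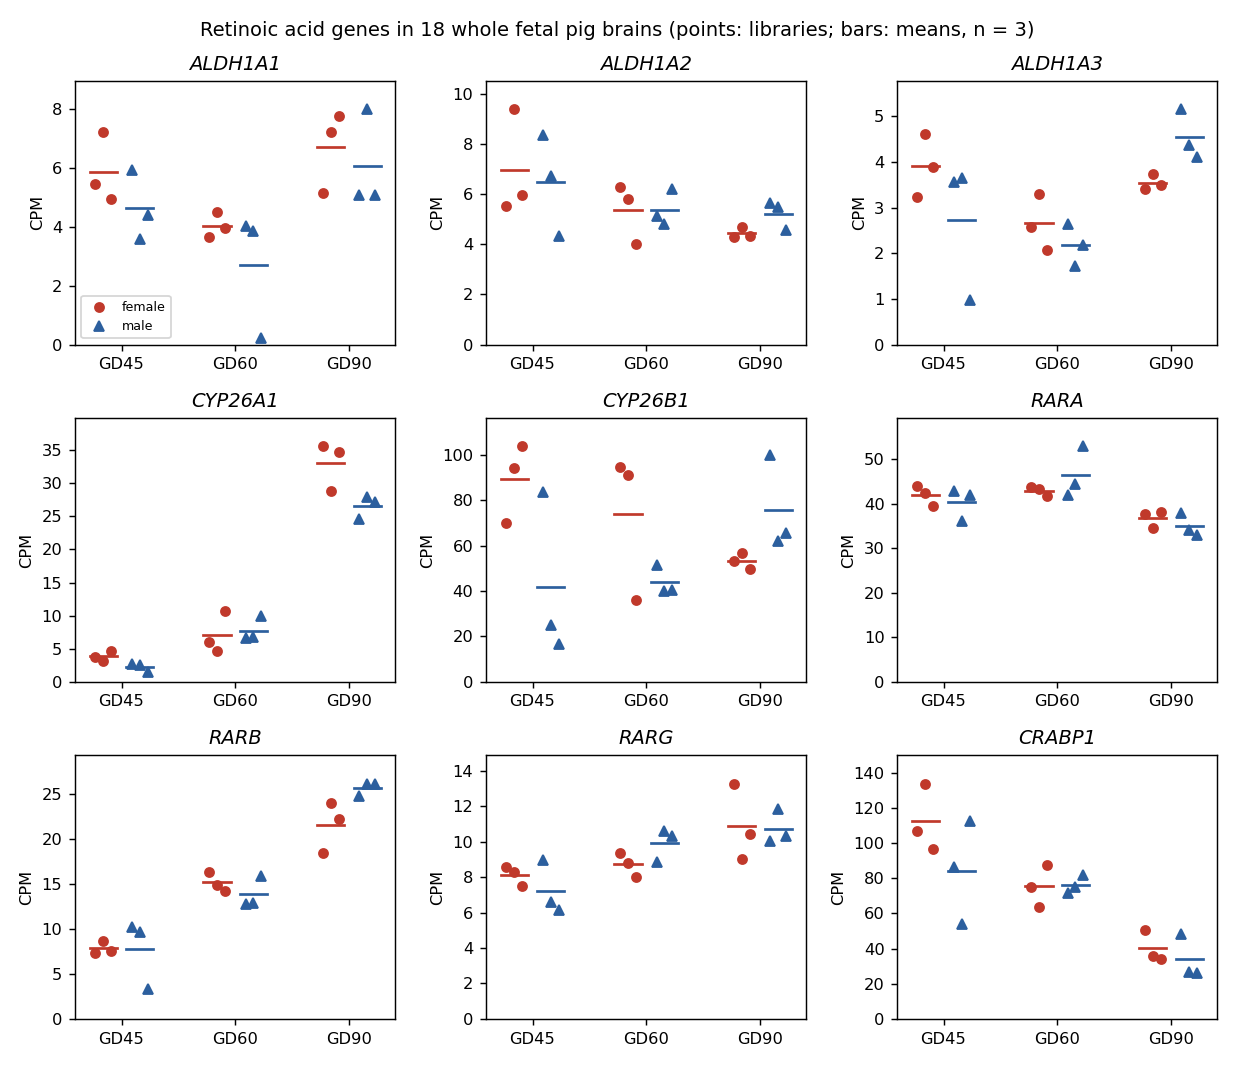
CPM of each gene in each of 18 libraries by gestation day, with females as red circles, males as blue triangles and bars at the means of 3. CYP26A1 and RARB climb with gestation day, CRABP1 declines, and CYP26B1 varies widely within groups.

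CYP26A1 (chromosome 14, 104563195 to 104567097, plus strand), an enzyme that clears retinoic acid and is induced by it, changed most. Females had 3.69, 3.13 and 4.69 CPM at GD45 (replicates 12, 13 and 18), 6.05, 4.62 and 10.8 at GD60 (replicates 3, 5 and 15) and 35.6, 28.9 and 34.8 at GD90 (replicates 2, 7 and 9). Males had 2.64, 2.48 and 1.52 CPM at GD45 (replicates 11, 14 and 17), 6.56, 6.76 and 9.90 at GD60 (replicates 4, 6 and 16) and 24.5, 27.9 and 27.2 at GD90 (replicates 1, 8 and 10). The 6 GD90 libraries were all far above the other 12, and between GD45 and GD60 the groups overlapped in females (4.69 against 4.62) and not in males. From GD60 to GD90 it rose 4.82-fold in females (log2 fold change 2.27 ± 0.28 SE, adjusted p = 1.84e-05) and 3.36-fold in males (1.75 ± 0.27, adjusted p = 0.000182). Over GD45 to GD60 it rose 3.48-fold in males (1.80 ± 0.30, adjusted p = 0.00192), a call lost when only the libraries compared were fitted (0.101), and in females the log2 fold change was 0.95 ± 0.29 with an adjusted p of 0.055. The female value passed the threshold in 6 of 27 alternatives, among them without female GD60 replicate 5 (adjusted p = 0.0229), without male GD60 replicate 16 (0.0472) and without male GD45 replicate 17 (0.0309). From GD45 to GD90 the rise was 9.29-fold in females and 11.7-fold in males (adjusted p = 2.55e-07 and 1.37e-07). All 7 exons of the gene had higher mean CPM at GD90 than at GD60 and at GD45, so the rise was spread along the transcript. In a bulk brain, more cells with CYP26A1 and more CYP26A1 RNA per cell cannot be told apart, and the same holds for every gene below.

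CYP26B1 (chromosome 3, 70572197 to 70593408, plus strand), the other clearing enzyme, did not pass the test in any comparison and was, with ALDH1A1, the most uneven member within groups. Females had 70.3, 94.5 and 103.8 CPM at GD45, 94.7, 91.3 and 36.1 at GD60 and 53.3, 56.8 and 49.6 at GD90. Males had 83.6, 24.9 and 16.8 CPM at GD45, 51.5, 40.0 and 40.6 at GD60 and 100.1, 62.1 and 65.7 at GD90. Male GD45 replicates 14 and 17 were the lowest of all libraries, while male GD45 replicate 11 lay within the female range. Its pooled SD within groups was 0.57 on the log2 CPM scale, against 0.16 for RARA and 0.19 for RARG. At GD45 the log2 difference of males from females was -1.05 ± 0.41 (adjusted p = 0.995), and without male GD45 replicate 11 it was -1.97 (adjusted p = 0.0154). From GD60 to GD90 it was -0.37 ± 0.41 in females and 0.77 ± 0.41 in males, the interaction of sex and period being 1.14 ± 0.57 (adjusted p = 0.271). Without male GD90 replicate 1 the male change of 0.77 was 0.52 (adjusted p = 0.399). Without male GD45 replicate 11 that change from GD60 to GD90 had an adjusted p of 0.034, and from GD45 to GD90 the male log2 fold change went from 0.86 ± 0.41 (adjusted p = 0.0908) to 1.78 (0.000313). When only the libraries compared were fitted, the male change from GD60 to GD90 and the female one from GD45 to GD90 were called (0.00344 and 0.00349), and with the inferred litter as a block the male one from GD45 to GD90 was called (1.09, 0.0381).

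EN2, a transcription factor of the midbrain and anterior hindbrain, and the HOX genes of the hindbrain and cord varied between libraries of a group as well. EN2 had 22.4 CPM in male GD90 replicate 1, the library with the most CYP26B1 at that day, 10.2 in female replicate 2 and 1.10 to 2.28 in the other 4. At GD60 EN2 was 14.5 and 16.0 CPM in female replicates 3 and 5, where CYP26B1 was above 90, and 0.24 to 7.16 in the other 4 libraries, where CYP26B1 was 36.1 to 51.5. At GD45 EN2 was lowest in male replicate 14 (6.53 CPM) and 14.04 in male replicate 17, whose CYP26B1 was lower still. EN1, a related factor, did not order the libraries in the same way, with 4.60 CPM in female GD60 replicate 3 against 7.04 in male GD60 replicate 4, and 3.32 in male GD90 replicate 1 against 3.86 in female GD90 replicate 2. The 14 HOX genes of paralog groups 1 to 5 found in the table summed to 99.98, 49.2 and 28.6 CPM in female GD45 replicates 13 and 18 and male GD45 replicate 11. They summed to 9.21 and 3.96 CPM in female GD45 replicate 12 and male GD45 replicate 17, to at most 0.0653 CPM in male GD45 replicate 14, female GD60 replicate 15 and male GD60 replicate 16, and to 0.66 to 4.22 CPM elsewhere. The part of these values in the CYP26B1 result was not tested.

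**Figure D3:**
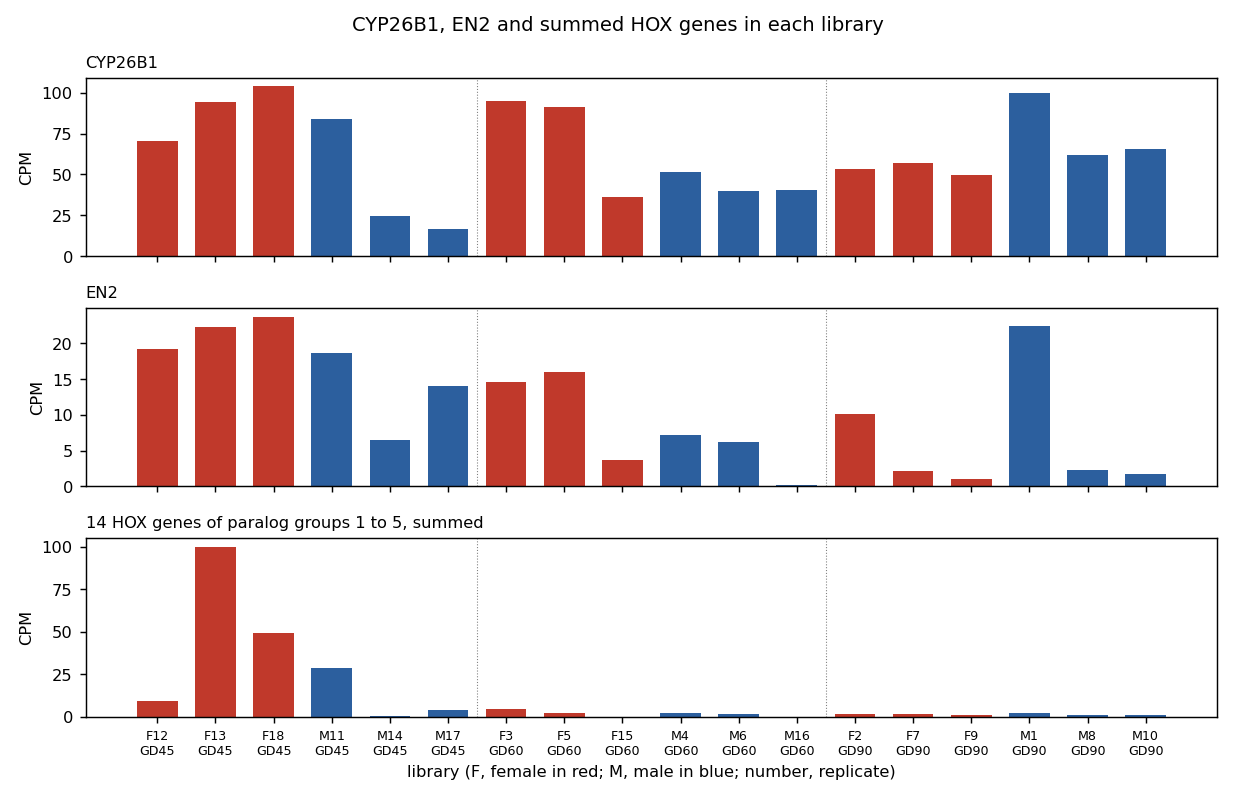
CPM of CYP26B1, of EN2 and of 14 summed HOX genes in each library, with females in red and males in blue and gestation days separated by dotted lines. EN2 is high with CYP26B1 in male GD90 replicate 1 and in female GD60 replicates 3 and 5, and the summed HOX genes reach 99.98 CPM in female GD45 replicate 13.

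The synthesis enzymes were low at each day, and only ALDH1A3 was called in a comparison. ALDH1A1 (chromosome 1, 226161296 to 226217312, minus strand) had 5.46, 7.22 and 4.93 CPM in GD45 females, 5.94, 3.59 and 4.42 in GD45 males, 3.65, 4.49 and 3.95 in GD60 females and 4.03, 3.86 and 0.24 in GD60 males. At GD90 it had 5.16, 7.21 and 7.77 CPM in females and 5.10, 8.00 and 5.09 in males, and all 6 libraries lay above the 6 of GD60. The log2 fold change from GD60 to GD90 was 0.81 ± 0.49 in females (adjusted p = 0.235) and 1.17 ± 0.50 in males (adjusted p = 0.0815). One library stood apart. Male GD60 replicate 16 held 4 ALDH1A1 reads (exact 95% Poisson interval 0.066 to 0.618 CPM), where the other 5 GD60 libraries held 58 to 78. Without this library the female value was called (adjusted p = 0.0268, and 0.0274 when only the libraries compared were fitted), the male log2 fold change from GD60 to GD90 was 0.64 (adjusted p = 0.122), and the male one from GD45 to GD60 went from -0.83 to -0.30. The male change from GD60 to GD90 was called by DESeq2 (adjusted p = 0.0486), on exon counts (0.0202) and with the inferred litter as a block (1.80, 0.0293). Each of these fits kept replicate 16, which had no count on any ALDH1A1 exon, and exon counts held 19.9% of the gene's counts.

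The same library was low in several genes of midbrain dopamine neurons. SLC6A3, the dopamine transporter, was at 0.91 CPM in male GD60 replicate 16 and 4.36 to 8.90 in the other GD60 libraries, and TH, the rate-limiting enzyme of dopamine synthesis, at 1.09 against 5.09 to 7.71. EN1 (0.060 against 2.23 to 7.07 CPM) and FOXA2 (0.060 against 0.72 to 1.19), transcription factors of the developing midbrain, were close to 0. LMX1B, another factor of the list, was within the GD60 range, at 1.21 CPM against 0.76 in female replicate 15. The part of these midbrain values in the ALDH1A1 result was not tested. Over the 18 libraries and 12808 named genes with a mean of at least 1 CPM, the genes whose log2 CPM followed ALDH1A1 most closely were SLC6A3 (Pearson r = 0.861), CLGN (0.842) and TH (0.836), as a description of libraries that share gestation day and, in replicate 16, that low library. By rank, SLC6A3 had a Spearman rho of 0.525 (place 665 of the 12808 genes), TH of 0.633 (place 230) and CLGN of 0.719 (place 54.5). None was thus among the nearest genes by rank. EN2 (0.24 against 3.75 to 16.0 CPM) and DDC (2.78 against 6.99 to 9.98) were low in replicate 16 as well. The summed list of 11 dopamine neuron genes was 71.8 CPM in replicate 16, the lowest of all libraries. It was 80.1 to 128 in the other 5 of GD60 and 88.8 to 147 at the other days. Most of the sum in replicate 16 came from SLC18A2, PITX3, LMX1A and NR4A2, whose own levels are not given here. Together those genes were within the range of the other GD60 libraries. The low genes named are thus only part of the list, and the list as a whole was far less reduced.

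**Figure D4:**
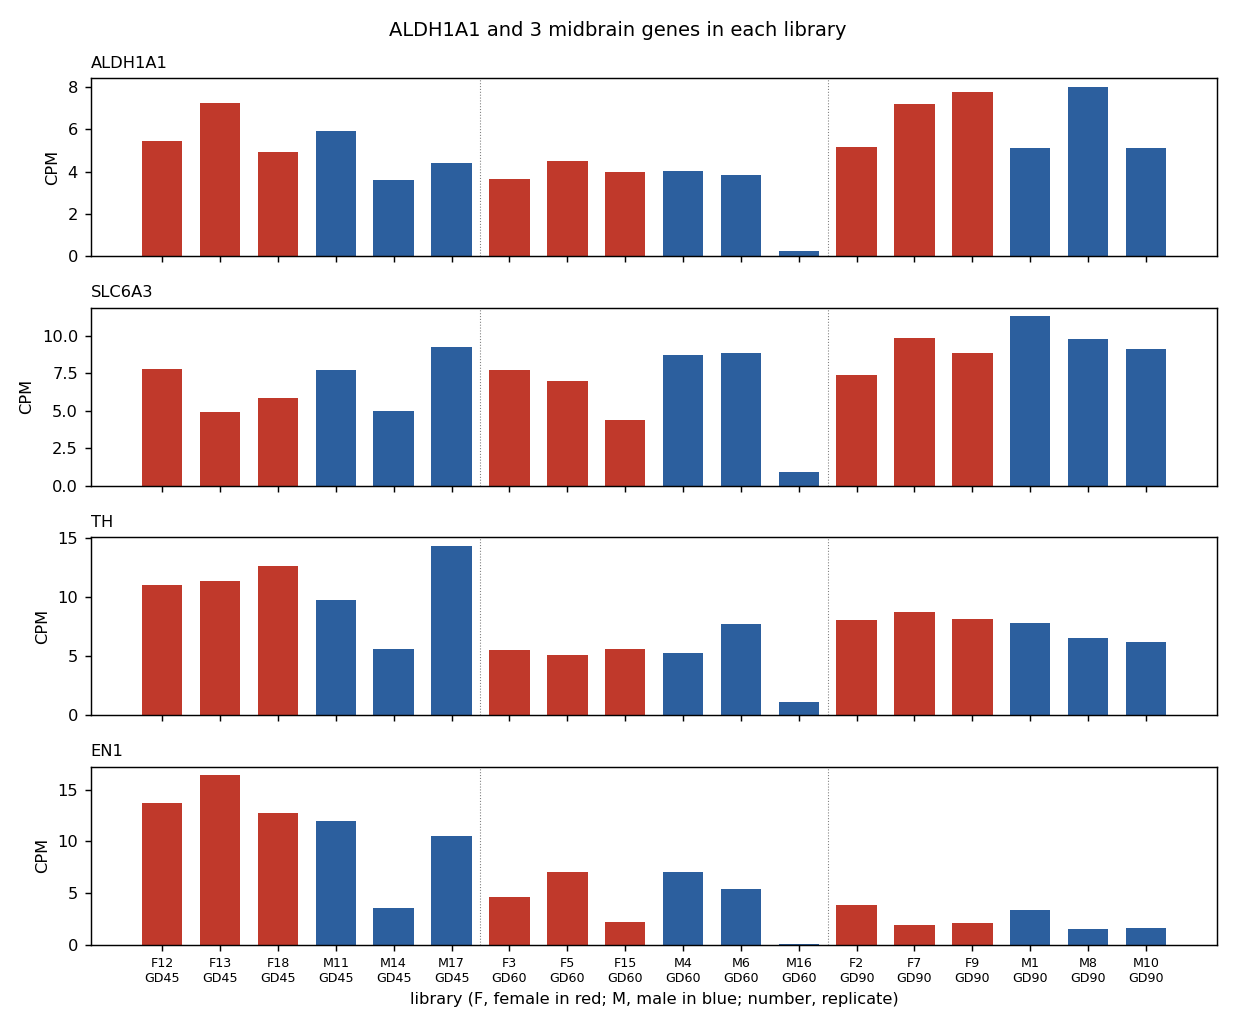
CPM of ALDH1A1 and of the midbrain genes SLC6A3, TH and EN1 in each library, with females in red and males in blue. All 4 genes are at their lowest in male GD60 replicate 16, with ALDH1A1 at 0.24 CPM.

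ALDH1A2 (chromosome 1, 113715620 to 114037249, plus strand), the main enzyme of retinoic acid synthesis in the early embryo, did not pass the test in any comparison. It ranged from 4.35 to 9.38 CPM at GD45, from 4.00 to 6.30 at GD60 and from 4.31 to 5.63 at GD90. The log2 fold change from GD45 to GD90 was -0.54 ± 0.24 in females (adjusted p = 0.0838), called without the GD45 pair with the lightest brains (0.0415). The female groups did not overlap, as for 58.7% of all genes. In males the log2 fold change was -0.33 ± 0.24 (adjusted p = 0.261), and the groups overlapped. A summed list of 11 meningeal and fibroblast genes, a known site of ALDH1A2, was 789 to 1718 CPM at GD45, with the low end in male replicate 17, 1086 to 1449 at GD60 and 1159 to 1557 at GD90. ALDH1A2 shares the span of its introns with AQP9 on the other strand, and no exon base.

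ALDH1A3 (chromosome 1, 139451049 to 139491513, plus strand) had 3.23, 4.61 and 3.88 CPM in GD45 females, 3.57, 3.65 and 0.99 in GD45 males, 2.58, 3.30 and 2.08 in GD60 females and 2.65, 1.72 and 2.17 in GD60 males. At GD90 it had 3.40, 3.74 and 3.50 CPM in females and 5.16, 4.37 and 4.10 in males. It was lowest of all in male GD45 replicate 17, and the 3 GD90 males were above every GD60 library. In males it rose 2.06-fold from GD60 to GD90 (log2 fold change 1.04 ± 0.32, adjusted p = 0.0178), a call lost without male GD90 replicate 1 (adjusted p = 0.0602), without male GD60 replicate 6 (0.0804) and on exon counts (0.229). In females the log2 fold change was 0.51 ± 0.31 (adjusted p = 0.245), and the interaction was 0.53 ± 0.44 (adjusted p = 0.476). Over GD45 to GD90 the male value of 0.72 ± 0.31 (adjusted p = 0.0646) was called by the likelihood ratio test (0.0441), by DESeq2 (0.0447), with the inferred litter as a block (0.0398) and without male GD45 replicate 11 or 14 (0.0441 and 0.0356).

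Of the receptors, RARB rose with gestation day, RARA fell late in males and RARG rose slowly. RARB (chromosome 13, 12336972 to 12507680, plus strand) had 7.39, 8.64 and 7.58 CPM in GD45 females, 16.4, 14.9 and 14.2 in GD60 females and 18.4, 24.0 and 22.2 in GD90 females. In males it had 10.3, 9.66 and 3.30 CPM at GD45, 12.8, 12.9 and 15.9 at GD60 and 24.8, 26.2 and 26.2 at GD90. No library of a later day overlapped one of an earlier day in either sex, and male GD45 replicate 17 was the lowest of all. From GD45 to GD60 RARB rose 1.95-fold in females (adjusted p = 0.0219) and 1.81-fold in males (adjusted p = 0.0452). The male call was lost in 19 of 27 alternatives, with adjusted p values of 0.0508 to 0.447 that included 0.187 without male GD60 replicate 16. Without male GD45 replicate 17 the log2 fold change went from 0.86 to 0.53 and stayed called (0.0439). The female call was lost without female GD60 replicate 3 or 5 (0.0785 and 0.054) and without female GD45 replicate 12 or 18 (0.0822 and 0.0889). Later, from GD60 to GD90, RARB rose 1.82-fold in males (adjusted p = 0.0096), and in females the log2 fold change was 0.59 ± 0.23 (adjusted p = 0.0718), which was called without male GD45 replicate 17 (0.00268). From GD45 to GD90 it rose 2.94-fold in females and 3.30-fold in males (adjusted p = 7.46e-05 and 2.54e-05).

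The end of RARB shares 513 exon bases with TOP2B on the other strand, a gene with 104477 counts, and reads of the shared stretch cannot be assigned without strand. All 8 RARB exons with at least 50 counts over all libraries had higher mean CPM at GD90 than at GD60 and at GD45. Its first exon alone went from 0.414 to 0.917 and 2.37 CPM. The gene that RARB followed most closely over the 18 libraries was RBFOX3 (Pearson r = 0.992, Spearman rho 0.988), which encodes the neuronal marker NeuN. RBFOX3 ranged from 21.1 to 50.6 CPM at GD45, from 64.1 to 72.2 at GD60 and from 89.4 to 121 at GD90, and its lowest library was male GD45 replicate 17, as for RARB. SYBU and LRRC4 came next (0.980 and 0.978), and all 3 are descriptions over libraries that share gestation day.

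RARA (chromosome 12, 22047442 to 22085674, minus strand), the most abundant receptor at GD45, was the steadiest member. It had 43.7, 43.3 and 41.7 CPM in GD60 females, 42.0, 44.5 and 52.9 in GD60 males, 37.6, 34.5 and 38.0 in GD90 females and 37.8, 34.1 and 33.0 in GD90 males. The GD90 libraries were all below those of GD60, and the highest of all was male GD60 replicate 16. In males RARA fell to 0.739 of its GD60 level (log2 fold change -0.44 ± 0.14, adjusted p = 0.025), and without male GD60 replicate 16 the value was -0.29 and not called (adjusted p = 0.151). It was also not called without male GD90 replicate 8 or 10 (0.0673 and 0.0882) or on exon counts (0.118). In females the change was -0.14 ± 0.14 (adjusted p = 0.499). At GD45 RARA ranged from 36.0 to 44.0 CPM, and the male change from GD45 to GD90, -0.26 with an adjusted p of 0.138, was called without male GD45 replicate 14 (-0.38, 0.0393).

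RARG (chromosome 5, 18436267 to 18458625, minus strand) ranged from 6.13 to 8.96 CPM at GD45, from 8.01 to 10.6 at GD60 and from 9.02 to 13.3 at GD90. From GD45 to GD90 it rose 1.44-fold in females and in males (log2 fold change 0.53 ± 0.18 in each, adjusted p = 0.0267 and 0.0235). The female call was lost without female GD90 replicate 2 (adjusted p = 0.18) or female GD45 replicate 13 or 18 (0.054 and 0.105), and the male one without male GD90 replicate 8 (0.107) or male GD45 replicate 14 or 17 (0.0881 and 0.0552). Without a filter on low counts both calls were lost (0.078 and 0.068), as was the female one without TMM factors (0.0725), the male one when only the libraries compared were fitted (0.0781), and both without the pair with the lightest GD45 brains (0.0907 and 0.0605). Over successive days no RARG change was called.

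Counted per length within the receptor family, RARB took a mean of 18.9% of receptor FPKM at GD45 (range over 6 libraries 9.14% to 25.0%), 28.4% at GD60 (25.6% to 31.2%) and 42.7% at GD90 (34.9% to 47.2%). RARA took 69.1%, 59.9% and 44.6%, with GD90 libraries at 40.8% to 48.9% and those of earlier days at 57.2% or more. RARG stayed between 10.8% and 16.2%. These shares rest on gene counts, and the RARB length includes the 513 exon bases shared with TOP2B, where reads cannot be assigned without strand. From exon counts, mean FPKM of RARB was 4.77 at GD45, 8.47 at GD60 and 13.9 at GD90. That of RARA was 5.83, 6.61 and 4.99. These values divide by the summed length of all listed exons, so overlapping exon entries count more than once. For RARA, entries of 573, 631 and 178 bases with 0 counts lie inside longer exons, which lowers its values. No RARB entries overlap. On this length RARB was above RARA at GD60 and GD90, but the GD60 order depends on the length used. Exon counts held 36.7% of the gene counts of RARA and 77.5% of those of RARB. In the same way CYP26A1 took 11.7% of the FPKM of CYP26A1 and CYP26B1 at GD45 (6.78% to 18.7%), 25.1% at GD60 (10.5% to 40.7%) and 52.0% at GD90 (36.1% to 61.8%), so the GD60 range ran into both others.

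CRABP1 (chromosome 7, 47602192 to 47608970, minus strand), which binds retinoic acid in the cytoplasm and marks young neurons in several regions, declined with gestation day. Females had 106.7, 133.8 and 96.4 CPM at GD45, 74.9, 63.7 and 87.3 at GD60 and 50.8, 35.7 and 34.1 at GD90. Males had 86.6, 53.7 and 112.7 CPM at GD45, 71.4, 74.7 and 81.8 at GD60 and 48.5, 26.8 and 26.1 at GD90. The 6 GD90 libraries lay below all others, and male GD45 replicate 14 (53.7) came nearest to them. In the last period CRABP1 fell to 0.437 of its level in males (log2 fold change -1.19 ± 0.30, adjusted p = 0.00652), and in females the change was -0.82 ± 0.30 (adjusted p = 0.0517). The female value passed the threshold in 11 of 27 alternatives, among them without male GD45 replicate 14 or 17 (adjusted p = 0.0235 and 0.0148), without female GD90 replicate 2 (0.0418) and without male GD90 replicate 1 (0.036). From GD45 to GD90 it fell to 0.385 in females and 0.377 in males (adjusted p = 0.0017 and 0.00125). All 4 exons had lower mean CPM at GD90 than at GD45.

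**Figure D5:**
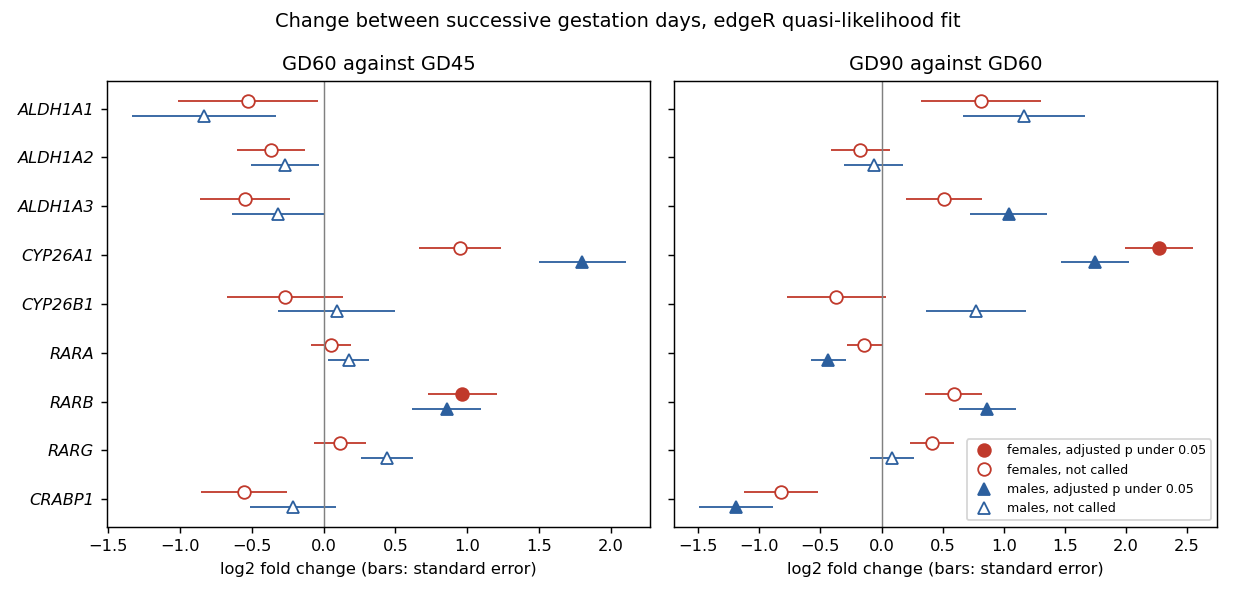
Log2 fold change of each gene between successive gestation days with its standard error, for females (circles) and males (triangles), filled where the adjusted p is under 0.05. CYP26A1 has the largest values, up to 2.27 in females from GD60 to GD90, and CRABP1 the lowest from GD60 to GD90.

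Between the sexes, no member was called at any day. The quasi-likelihood test called 15 of 16325 genes at GD45 (0.0919%), 16 at GD60 (0.098%) and 16 at GD90 (0.098%), and the likelihood ratio test and DESeq2 also called no member. At an unadjusted p under 0.05 there were 2 members at GD45 (CYP26A1 and CYP26B1) and 0 at GD60 and GD90. CYP26A1 was lower in all 3 GD45 males than in the GD45 females (log2 difference -0.71 ± 0.31, adjusted p = 0.995), and was again lower in all 3 GD90 males (-0.38 ± 0.26, adjusted p = 0.46). At GD90 the groups did not overlap for CYP26A1, ALDH1A3, CYP26B1 and RARB, 4 of 9 members, where 36% of all tested genes did not overlap. At GD45 they did not overlap for 1 member against 5.79% of genes, and at GD60 for 0 members against 11.2%. The interaction of sex and period called 0% of genes in both periods by the quasi-likelihood test, with 333 genes at an unadjusted p under 0.05 from GD45 to GD60 and 3232 from GD60 to GD90. In the later period the likelihood ratio test called 129 genes and DESeq2 268, and in the earlier both called 0. None of the 9 members was among them, and 0 members had an unadjusted p under 0.05. For CYP26A1 the interaction was 0.85 ± 0.41 from GD45 to GD60 (adjusted p = 1) and -0.52 ± 0.38 from GD60 to GD90 (adjusted p = 0.415). A different rise of CYP26A1 in the sexes was thus not shown.

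Around the 9 genes, lists of 74 other genes of the pathway were read, of which 64 passed the filter. From GD45 to GD60, 2 rose and 10 fell in females (18.8% of 64, beside 7.22% of all genes) and 2 rose and 4 fell in males (9.38%, beside 5.61%). From GD60 to GD90, 8 rose and 16 fell in females (37.5% of 64, beside 27.1% of all genes) and 7 rose and 15 fell in males (34.4%, beside 34.5%). Among uptake and carrier genes, RBP4, the blood carrier of retinol, rose from GD60 to GD90 in females (log2 fold change 2.18 ± 0.22, adjusted p = 2.32e-06) and in males (1.56 ± 0.21, adjusted p = 5.4e-05). STRA6, its membrane receptor, fell in males (-0.46 ± 0.17, adjusted p = 0.0453), and its female value was -0.10 ± 0.17 (0.705). The list of retinol and retinal enzymes had 2 of 12 tested genes higher in each sex and none lower, with DHRS3, which turns retinal back to retinol, higher in females (1.11 ± 0.21, adjusted p = 0.000984) and at 0.27 ± 0.21 in males (0.334). RDH11, a retinol dehydrogenase family member, was higher in males (0.79 ± 0.12, adjusted p = 0.000186) and in females (0.46 ± 0.12, adjusted p = 0.0108).

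From GD45 to GD90, 38.8% of all genes were called in females and 47.8% in males. The binding proteins CRABP2 and FABP5 and the third clearing enzyme, CYP26C1, fell over that whole span. All 3 were lower at GD90 than at GD45 in each sex, and from GD60 to GD90 in males CRABP2 fell by 1.25 ± 0.30 and FABP5 fell by 0.94 ± 0.25 on the log2 scale (adjusted p = 0.00428 and 0.00924), beside -0.95 ± 0.30 (0.0255) and -0.39 ± 0.25 (0.272) in females. Among 8 RXR partners and other nuclear receptors, from GD60 to GD90, NR2F2 fell in females (-0.71 ± 0.12, adjusted p = 0.000349) and in males (-0.69 ± 0.12, adjusted p = 0.00042). RXRG, a partner of the RARs found in the striatum, fell in males (-0.77 ± 0.19, adjusted p = 0.00497) and was at -0.28 ± 0.19 in females (0.288), and 1 of the list was lower in females and 4 in males. Of 10 coregulators, 6 fell and 1 rose in females from GD60 to GD90 and 1 fell and 1 rose in males. In that period 27.1% of all genes were called in females and 34.5% in males. CREBBP, a histone acetyltransferase, fell by 1.06 ± 0.21 in females (adjusted p = 0.00111) and was at -0.30 ± 0.20 in males (0.268). KAT2B, another, rose by 1.23 ± 0.15 in males (adjusted p = 1.61e-05) and by 0.74 ± 0.15 in females (0.00135). None of these pathway genes had a called interaction of sex and period by the quasi-likelihood test, so no difference between the sexes was shown.

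Genes outside the HOX clusters that are known targets included 22 that were tested. Over GD60 to GD90, 4 rose and 9 fell in females and 3 rose and 8 fell in males, with a median log2 fold change of -0.41 and -0.31. PBX3 and MEIS2, homeodomain partners of HOX proteins, fell in females (-1.32 ± 0.15 and -1.16 ± 0.17, adjusted p = 6.96e-06 and 8.42e-05) and in males (-1.12 ± 0.15 and -1.11 ± 0.17, adjusted p = 3e-05 and 0.00012). Of 10 HOX genes tested, 5 were lower at GD60 than at GD45 in females and 0 in males, beside 7.22% and 5.61% of all genes. In females HOXC4 fell by 5.79 ± 1.35 and HOXA3 by 4.82 ± 1.19 (adjusted p = 0.0149 and 0.0214). Both rest on the few GD45 libraries in which the summed HOX genes were high. Their fitted sizes thus depend on the default prior count of the edgeR fit, which is not the one used for log2 CPM. A list of 13 striatal genes in the table had 1 higher and 5 lower in females and 1 higher and 4 lower in males from GD60 to GD90, and 9 choroid plexus genes had 0 higher and 3 lower in each sex. The counts of targets, striatal and choroid plexus genes in that period stand beside 27.1% of all genes called in females and 34.5% in males.

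Besides those of ALDH1A1 and RARB, the nearest patterns by Pearson r over the 18 libraries were TTC7B for CYP26A1 (0.978), ANO1 for CYP26B1 (0.851), CKAP4 for ALDH1A2 (0.804), CYBRD1 for ALDH1A3 (0.927), RRAD for RARA (0.896), RHCE for RARG (0.895) and UFD1 for CRABP1 (0.941). ANO1 ranged from 1.05 CPM in male GD45 replicate 17 to 4.27 CPM in male GD90 replicate 1, at or near the extremes of CYP26B1. Without male GD45 replicate 17 the r of CYP26B1 with ANO1 was 0.787. CYP26A1 and RARB, which rise with gestation day, had r values above 0.97 with each of their 3 nearest genes, whereas those of ALDH1A2 and CYP26B1 lay between 0.767 and 0.851.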

How the data were processed

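Total RNA of 18 whole fetal brains, enriched for mRNA with oligo(dT) beads, was sequenced as paired-end reads. The authors checked the reads with FastQC, trimmed them with Trimmomatic, aligned them to Sscrofa11.1 by HISAT2 and deposited raw read counts per gene, exon and transcript, made with featureCounts from Ensembl gene models. Strand and multi-mapping options were not given in the sources used here. The 22 columns hold 18 libraries, as 4 had 2 runs each, which were summed. The transcript table was not used. Genes (16325 after filterByExpr) were fitted with edgeR 4.0.16 in R 4.3.3, with TMM factors, 1 model of 6 groups, the quasi-likelihood test and Benjamini-Hochberg adjustment (threshold 0.05). CPM used library totals, FPKM also the deposited gene length, and log2 CPM a prior count of 2. Alternatives were the likelihood ratio test, DESeq2 1.42.0, no TMM factors, 2 other filters, exon counts, a fit of the compared groups alone, a block for litter, stricter thresholds and each library or the lightest GD45 pair left out. Litter was inferred from equal litter sizes. For comparisons of days it was a correlated block in limma 3.58.1. For comparisons of the sexes and interactions it was a fixed term of the edgeR quasi-likelihood model. Steps were tested on simulated counts. In other pathway lists, the 2 genes called with the smallest adjusted p over successive days and a mean of at least 1 CPM were named, and for each member the 3 genes of highest Pearson r were found. HOXD1 and the genes shown beside ALDH1A1, CYP26B1 and RARB were chosen after their values were seen. The members and lists were chosen with earlier results of these data known. Sequences were read from the RefSeq copy of Sscrofa11.1.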

Additional observations from a re-analysis of the deposited data

Results flagged for a closer look

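Each member's 6 libraries of a day were searched for a library far from the others, 27 sets in all, of which chance flags about 1 in 20. At GD60, ALDH1A1 was lowest in male replicate 16 (0.24 CPM), with the next library at 3.65 and the highest at 4.49. In the same library RARA was the highest of GD60 (52.9 CPM), with the next at 44.5 and the lowest at 41.7. At GD90, CYP26B1 was highest in male replicate 1 (100.1 CPM), with the next at 65.7 and the lowest at 49.6. No member had a called interaction of sex and period.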

How the results depend on the processing

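Counts of called members were small, so that 1 gene near the threshold could move them by over 1.5 times. From GD45 to GD60 in females the count of 1 became 2 with the likelihood ratio test, with DESeq2 and without the GD45 pair of one litter size with the lightest brains, became 0 with an adjusted p under 0.01 or a log2 fold change beyond 1, and ranged from 0 to 2 with each library left out. In males the count of 2 became 1 without TMM factors, without a filter, on exon counts, with an adjusted p under 0.01 and with a log2 fold change beyond 1, 0 with only the 6 libraries compared, and 1 to 2 with a library left out. From GD60 to GD90 in females the count of 1 became 2 without TMM factors, without a filter, with a stricter filter (over 1 CPM in 3 libraries) and on exon counts, 3 with the likelihood ratio test, with DESeq2 and without that pair, 4 with only the libraries compared, and 1 to 3 with a library left out. In males the count of 5 became 3 under either stricter threshold and was 4 to 6 with a library left out. Over GD45 to GD90, with a library left out, the count of 4 was 3 to 4 in females and 3 to 6 in males, and with only the libraries compared it was 5 in females. Between the sexes at GD45 the count of 0 was 0 to 1 with a library left out, the 1 being CYP26B1 without male replicate 11. The litter, inferred from equal litter sizes, as a replicate block gave 2 members from GD60 to GD90 in females, with RARB added (adjusted p = 0.0458), and changed no other count by over 1.5 times (6 from GD60 to GD90 and from GD45 to GD90 in males). Deviations of fetuses of equal litter size from their group means had correlations of -0.093 to 0.424 over genes, and not all exceeded 0.1, so the litter was not treated as a pairing. No called member reversed its direction. The cause of each change was not tested. Exon counts held 15.7% to 94.8% of a member's gene counts (least for ALDH1A3), which limits that alternative. FPKM from exon counts put CYP26A1 in place 5 at GD45 and 3 at GD90, where gene counts put it in 7 and 2. They put RARB in place 3 and RARA in place 4 at GD60, where gene counts gave the reverse. That GD60 order depends on an exon length in which overlapping RARA entries count more than once. At GD90 exon counts put RARB in place 4 and RARA in place 5, again the reverse of gene counts.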

Other observations

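HOXD1, a member of the HOX paralog groups that respond to retinoic acid, was the 1 HOX gene of the list that was called higher at GD90. It had 11 to 23 reads in GD90 females and 6 to 14 in GD90 males, and 0 to 3 reads at GD60 and, but for female replicate 18 with 9, 0 to 2 at GD45. Its log2 fold change from GD60 to GD90 in females was 4.00 ± 1.05 (adjusted p = 0.00904). From GD45 to GD90 the log2 fold change was 2.32 ± 0.86 in females (adjusted p = 0.0406) and 3.58 ± 1.19 in males (0.0202). In the same comparisons 9 and 2 of the 10 HOX genes tested were lower, beside 38.8% and 47.8% of all genes called. At these read numbers the fitted values depend on the default prior count of the edgeR fit.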
